A study of Mus musculus with 2 samples.

Results

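Transcripts of the cytosolic ribosomal protein genes were examined in RNA-seq libraries of CD4- mature thymocytes (CD24 low, TCRβ high) sorted from *MHC-II0:CD8ab-Tg* mice. Members were all genes of both count tables whose symbol is *Rpl* or *Rps* followed by a number, with or without a final a or x, together with *Rplp0*, *Rplp1*, *Rplp2*, and *Rpsa*. Symbols of pseudogenes were not taken. The rule gave 76 of 48321 listed genes, or 0.157% of them, of which 46 encode proteins of the large subunit and 30 encode proteins of the small subunit. The rule uses symbols and no measured value, but it was set with earlier results of these data known.

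The mice were on the C57Bl/6 background and carried 4 alterations, namely I-Ab-/-, Cd8 Δab/Δab, Cd4-Cre, and Rosa26 8a/8b. They lack the MHC class II β chain and intact endogenous *Cd8a* and *Cd8b1* coding sequence, and CD8α and CD8β are made from *Rosa26* knock-in cDNAs once Cre, driven by *Cd4* regulatory sequence, has removed a stop cassette in thymocytes. There was 1 group with 2 replicates, and wild-type libraries were not analysed here, so no genotypes were compared. The labels do not say whether the replicates came from separate mice. The X-linked *Xist* had 34 and 25266 counts in replicates 1 and 2, and the Y-linked *Ddx3y* had 2450 and 0. The replicates were therefore not repeats of the same RNA. Other differences between them may be technical or may lie between the animals, and these cannot be told apart. The titles of the libraries describe cells without CD4 or CD8, whereas their cell type field gives CD8+ cells. All 10 markers fixed for mature CD8-lineage thymocytes were found. *Cd8a* and *Cd8b1* among them are altered in these mice and check nothing. The other 8 were found, at 228 to 720 CPM (the count of a gene per 1000000 counts on genes), and summed to 3333 CPM in replicate 1 against 3097 in replicate 2. The summed markers of CD4-lineage, immature double-positive, B, myeloid, red and thymic epithelial cells were each at most 19.8 CPM in either replicate, and 4 of 5 red cell markers had no counts.

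A ribosome carries 1 copy of nearly every ribosomal protein, and the acidic stalk proteins are an exception. The mRNAs of these proteins begin with a C followed by an uninterrupted run of pyrimidines, the terminal oligopyrimidine (TOP) tract, through which their translation follows the activity of mTOR. The genes are short and highly transcribed, and they have left a large number of processed pseudogenes in mammalian genomes. In thymocytes, ribosome production rises with growth and division, and the protein encoded by *Rpl22* is known for its role in the development of αβ T cells.

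Start sites of 56 members were covered by 66 promoter sequences of RefSeq (GRCm38.p6), each with 250 bases before the annotated start and 50 bases from the start on. In the 30 bases around the start (15 on each side), the longest run of pyrimidines was 21 bases for *Rpl7a* and 2 bases for *Rpl24*. The windows given next run 5′ to 3′ on the strand of the gene, the annotated start is base 16 of each, and capitals mark the longest pyrimidine run. The first 5 show runs of 10 bases or more that cross the start, and the last 3 show abundant transcripts whose annotated start has no such run.
Rpl7a (chr2:26910792-26910821, plus strand): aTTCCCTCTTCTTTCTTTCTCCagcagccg
Rpl15 (chr14:18270972-18271001, minus strand): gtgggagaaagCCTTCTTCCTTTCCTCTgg
Rpl35 (chr2:39005117-39005146, minus strand): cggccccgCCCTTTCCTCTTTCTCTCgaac
Rps6 (chr4:86857353-86857382, minus strand): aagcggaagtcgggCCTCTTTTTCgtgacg
Rplp2 (chr7:141447636-141447665, plus strand): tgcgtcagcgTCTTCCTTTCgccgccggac
Rpl41 (chr10:128549154-128549183, minus strand): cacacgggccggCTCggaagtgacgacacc
Rps15 (chr10:80292416-80292445, plus strand): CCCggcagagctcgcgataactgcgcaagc
Rps3 (chr7:99483695-99483724, minus strand): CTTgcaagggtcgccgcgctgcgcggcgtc

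A C at the annotated start followed by pyrimidines, at least 5 in a row with the C, was found in 13 of 66 member promoters (19.7%). The same was found in 2.51% of all 32851 promoters and in 2.38% of 2014 promoters of 1501 other protein-coding genes with at least 100 CPM. A run of at least 8 pyrimidines in the 30 bases around the start was present in 39.4% of member promoters, against 12% of all promoters and 13.0% of those of the other highly expressed genes. The letters CCGGAAG, the core of sites for ETS factors, were found on either strand of the 300-base sequence in 36.4% of member promoters, 8.86% of all promoters and 16.3% of the other highly expressed set. The GC box letters GGGCGG were found on either strand in 60.6%, 35.7%, and 66.5%, respectively. Members therefore held pyrimidine runs and ETS letters more often than both other sets, but GC boxes less often than the other highly expressed genes, as counts without a test.

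**Figure D1:**
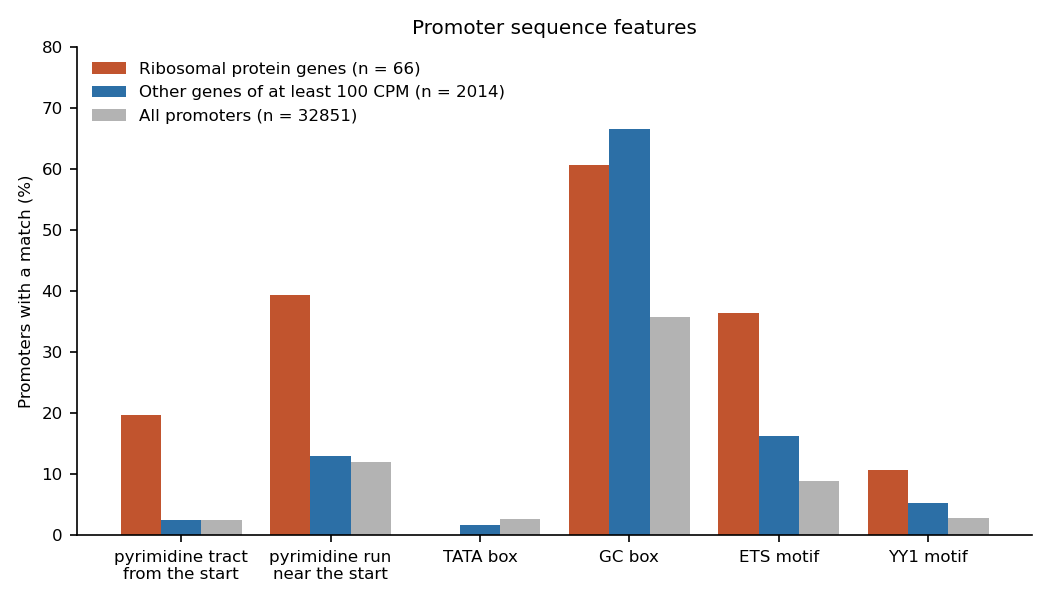
Percent of promoters (y axis) with each sequence feature (x axis) for 66 promoters of ribosomal protein genes, 2014 promoters of other protein-coding genes of at least 100 CPM, and all 32851 promoters. The pyrimidine tract is present in 19.7% of member promoters and in 2.51% of all promoters. No member promoter holds the TATA letters in the bases searched just before the start.

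The letters TATAAA did not occur in the 50 bases before the start of any of the 66 member promoters, and occurred in 2.63% of all promoters. AAGATGGC, the core of YY1 sites, was found on either strand in 10.6% of member promoters, 2.75% of all and 5.21% of the other highly expressed set. Transcript levels did not separate by the pyrimidine run. The median level was 831 CPM per kb in 25 members with a run of at least 8 and 778 CPM per kb in 31 members without it, with quartiles of 433 to 1164 and 658 to 1178. A missing match says only that these letters are not in the annotated window.

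Member transcripts made up 826038 of 16732644 counts on genes in replicate 1 and 872245 of 16245849 in replicate 2. These are 4.94% (Wilson 95% interval 4.93 to 4.95%) and 5.37% (5.36 to 5.38%), with a mean of 5.15 ± 0.306% (SD, n = 2). No molecular identifiers were used, so reads need not be separate molecules and the intervals hold for counting error alone. The replicates differed by more than these intervals. In bulk RNA, fewer cells of a type and less RNA per cell cannot be told apart. The large subunit took 2.71% and 2.96% of counts, and the small subunit 2.22% and 2.41%.

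To compare genes, CPM was divided by the length in kb of the principal transcript of GENCODE M21 (the shortest where several are marked principal), which had a median of 705 bases over the members and ranged from 271 to 3706. On this scale the median member was at 828 CPM per kb, while the median of 10546 protein-coding genes with at least 1 CPM was 11.5 CPM per kb. Members filled 57 of the first 100 places and 72 of the first 200 places when all genes were ranked by CPM per kb. Ranked by CPM, without length, they filled 23 of the first 100 and 46 of the first 200. The 10th and 90th percentiles of the members were 383 and 1591 CPM per kb, a 4.15-fold range. The mean level was at least 1000 CPM for 12 members, 500 to 1000 CPM for 37, 200 to 500 CPM for 24, 100 to 200 CPM for 1 (*Rps29*), and under 100 CPM for 2 (*Rpl13a* and *Rpl24*).

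Small-subunit transcripts had a median of 1054 CPM per kb (1024 in replicate 1 and 1083 in replicate 2) with quartiles of 709 and 1368. Large-subunit transcripts had a median of 782 CPM per kb (734 and 811) with quartiles of 464 and 1037. The medians of both replicates were thus higher for the small subunit, and the quartile ranges overlapped. With coding length in place of transcript length, which was chosen after the data were seen, the medians were 1432 for the small and 1188 CPM per coding kb for the large subunit, in the same order.

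**Figure D2:**
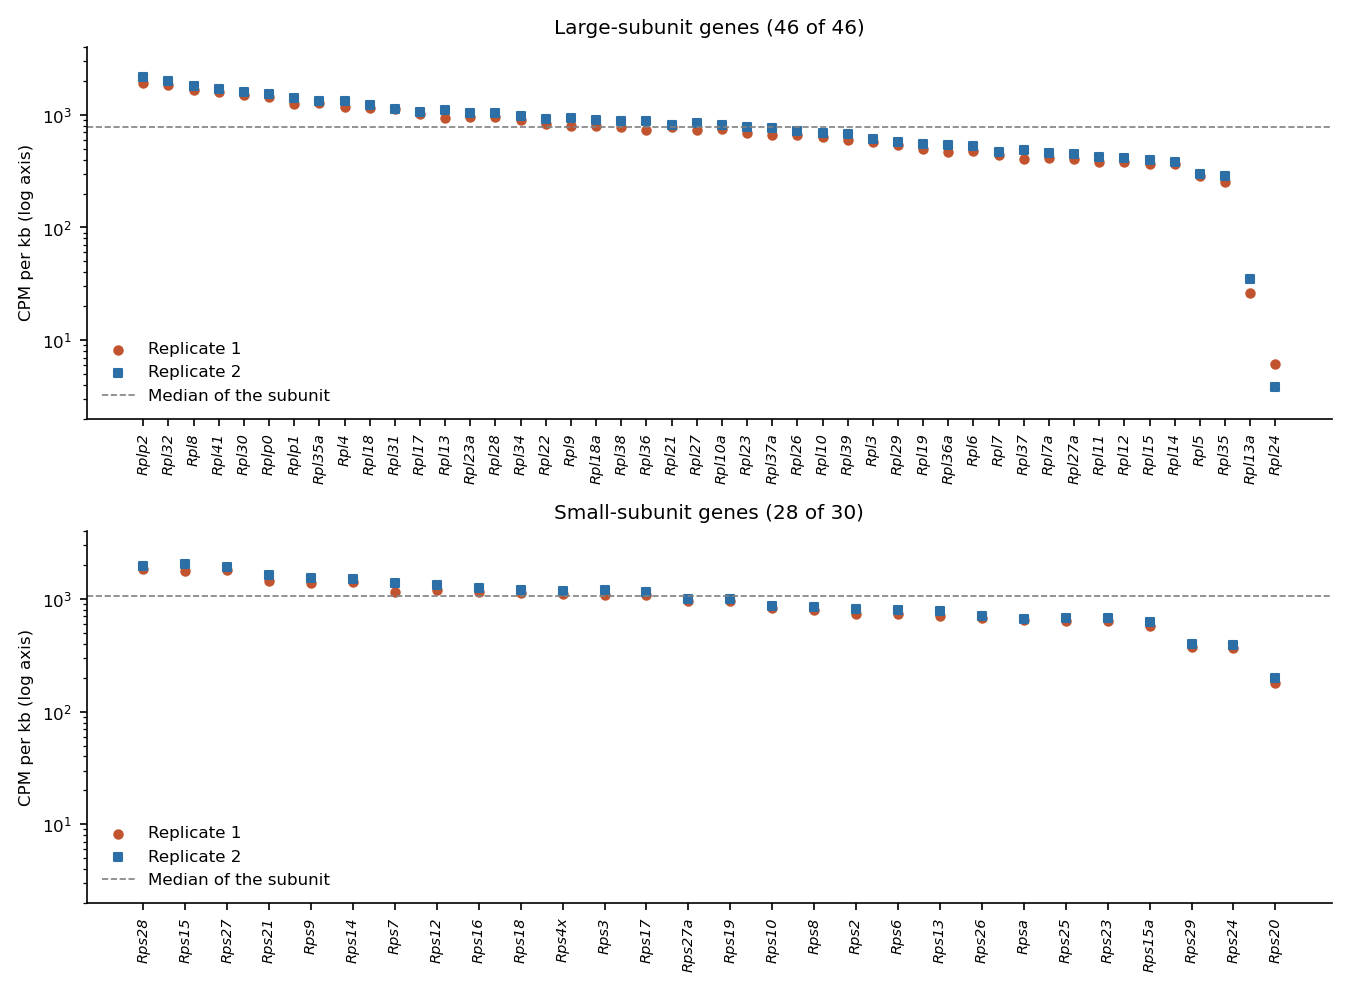
Level of each member in CPM per kb (y axis, log scale), ordered by mean level on the x axis, for 46 large-subunit genes (upper panel) and 28 of the 30 small-subunit genes (lower panel). Circles show replicate 1, squares replicate 2, and the dashed line is the median of all members of the subunit. *Rpl13a* and *Rpl24* lie below 40 CPM per kb, and every other member drawn lies above 100.

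The highest level per kb of principal transcript was that of *Rplp2*, which encodes an acidic protein of the ribosomal stalk. It had 13460 and 14920 counts in replicates 1 and 2, or 1911 and 2181 CPM per kb. *Rpl32* followed with 1857 and 1990 CPM per kb, *Rps28* with 1832 and 1972, and *Rps15* with 1765 and 2036. The means of these 4 transcripts, 2046 ± 191, 1924 ± 94.1, 1902 ± 98.9, and 1900 ± 192 CPM per kb (SD, n = 2), differed between neighbours by less than their spread. *Rplp2* was nevertheless the highest, and *Rpl32* above *Rps28*, in both replicates, while *Rps15* and *Rps28* changed places between them. Per coding length, *Rpl41* was first at 9567 CPM per coding kb, since its reading frame is the shortest of the members with 75 bases.

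By counts without length, *Rps3* was the most abundant member, with 34894 and 37191 counts or 2085 and 2289 CPM. Its product lies at the entry of the mRNA channel. *Rplp0*, the base of the stalk, had 32911 and 33512 counts, and *Rpl4*, which lines the exit tunnel, had 30383 and 32930. Their levels per kb were 1146, 1484, and 1249, so that they were placed 24th, 11th, and 19th among the members by length-corrected level.

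Among the stalk genes, *Rplp0* had 1448 and 1519 CPM per kb, *Rplp1* had 1250 and 1416, and *Rplp2* had 1911 and 2181. Stalk proteins P1 and P2 are present as dimers on each ribosome, whereas P0 is present once. The ratio per kb was 0.898 ± 0.0490 for *Rplp1* to *Rplp0*, 1.38 ± 0.0826 for *Rplp2* to *Rplp0*, and 1.53 ± 0.00829 for *Rplp2* to *Rplp1* (SD, n = 2). With this length, *Rplp2* was the highest and *Rplp1* the lowest of the stalk transcripts in both replicates. Per coding kb the order was the same, with ratios to *Rplp0* of 0.917 for *Rplp1* and 1.18 for *Rplp2*. The union of annotated exons is 1659, 499, and 2072 bases for *Rplp0*, *Rplp1*, and *Rplp2*, and with it *Rplp2* was the lowest. Per kb of stretches found in no other gene, *Rplp1* (3696) lay above *Rplp0* (2644). The order thus depended on the length used.

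*Rpl5* and *Rpl11* encode the proteins that bind 5S ribosomal RNA and, when free, inhibit MDM2. *Rpl5* had 9880 and 9830 counts, equal to 289 and 296 CPM per kb. *Rpl11* had 5339 and 5694 counts, equal to 383 and 421 CPM per kb. Both lay in the lower part of the members, and the ratio of *Rpl5* to *Rpl11* per kb was 0.729 ± 0.0358 (SD, n = 2). Per coding kb the order turned, with a ratio of 1.07 ± 0.0526 (SD, n = 2).

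Genes whose products surround the mRNA path and the head of the small subunit ranged from 661 to 1453 CPM per kb. *Rps14* was the highest of them at 1413 and 1493 CPM per kb, and *Rpsa*, which also carries the name of the laminin receptor, was the lowest at 653 and 668. Between them lay *Rps3* (1093 and 1200), *Rps19*, the gene most often mutated in Diamond-Blackfan anaemia (957 and 999), *Rps2* (734 and 821), *Rps6*, the substrate of S6 kinase (730 and 807), and *Rps26* (682 and 714 CPM per kb). *Rps27a*, which is translated as a fusion with ubiquitin, had 969 and 1010 CPM per kb.

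Near the peptidyl transferase centre, *Rpl3*, which reaches towards the centre, had 571 and 614 CPM per kb. *Rpl10*, the last large-subunit protein to join, had 637 and 693, and *Rpl4* had 1181 and 1318. At the tunnel exit, *Rpl23a* had 963 and 1035 CPM per kb, *Rpl39* had 602 and 671, and *Rpl35* had 255 and 285. *Rpl41*, the shortest protein, had 1585 and 1699 CPM per kb. *Rpl22* had 6542 and 7028 counts, or 825 and 913 CPM per kb, close to the median member.

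A pair of members stood far below the rest. *Rpl24* (ENSMUSG00000098274.7, chr16:55966275-55971435, plus strand, 6 exons), which encodes a protein of the bridge between the subunits, had 69 counts (replicate 1) and 42 counts (replicate 2), or 6.09 and 3.82 CPM per kb. *Rpl13a* (ENSMUSG00000074129.14, chr7:45125558-45128761, minus strand, 8 exons), whose product is also known as a translational silencer in interferon-treated myeloid cells, had 462 and 589 counts, or 26.4 and 34.6 CPM per kb. Both replicates of both genes lay below every other member, the next being *Rps20* with 179 and 197 CPM per kb. *Rps20* had 11121 and 11868 counts, and its only principal transcript is 3706 bases long. Per coding length it was placed 15th, whereas *Rpl24* and *Rpl13a* stayed in the last places.

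In the annotation, exons of *Gm28037* on the same strand cover 71.5% of the principal transcript of *Rpl24*, and exons of *Gm45713* cover 59.3% of that of *Rpl13a*. *Gm28037* was listed with 0 counts in both replicates, and the symbol *Gm45713* is not among those listed. Only 1 more member is overlapped in this way, *Rps10*, covered over 91.6% by *RPS10-NUDT3*, which is also not among the listed symbols. *Rps10* had 840 and 865 CPM per kb, close to the median member. The annotation used for counting is not given in the sources used here, and a read that falls on more than 1 gene was set aside as ambiguous, as were 1449905 reads in replicate 1 and 1151315 in replicate 2. The part of these overlaps in the low counts was not tested. The windows around the annotated starts show how the promoters of this pair differ, with a long pyrimidine run downstream of the start of *Rpl13a* only.
Rpl24 (chr16:55966260-55966289, plus strand): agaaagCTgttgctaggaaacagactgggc
Rpl13a (chr7:45128731-45128760, minus strand): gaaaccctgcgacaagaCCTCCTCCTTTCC

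Exons of genes on the opposite strand overlap the principal transcript of 8 members, by at most 68.3% (*Rpl35*). The kit named in the labels does not mark the strand, so reads of such partners cannot be told apart where exons overlap. The median of these 8 was 829 CPM per kb and that of the 65 members without any overlap was 831. Within the 8, *Rpl35* and *Rpl5* (46.6% covered) lay among the lowest 5 members, while *Rpl23a* (55.4%) had 999 and *Rpl30* (34.7%) had 1541 CPM per kb.

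Reads that align to several places were not counted, and processed pseudogenes are copies of the spliced mRNA, so shared sequence was measured for each member. A median of 55.0% of the 50-base stretches of a member's principal transcript also occurred, on either strand, in annotated transcripts of genes elsewhere. This share was 92.1% for *Rpl10* and 98.6% for *Rps27*. The median number of annotated pseudogenes that held such a stretch was 8.5, and the highest was 120, for *Rpl7a*. Unannotated copies were not counted, since only transcripts were searched.

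The level per kb did not follow this share across the members. Spearman's rho was -0.022 and Pearson's r of log2 levels was 0.010 over 76 genes, which are not independent replicates and all come from the same libraries. The median was 1146 CPM per kb in 11 members with a share under 30%, 799 in 29 members with 30 to 60%, 804 in 20 members with 60 to 80%, and 830 in 16 members with at least 80%. Per coding kb, rho was -0.41, so the result depended on the length used. The level per kb itself fell with transcript length (rho -0.44). Whether loss of shared reads lowered the levels was not tested. *Rps27*, with 98.6% shared, had 1805 and 1927 CPM per kb and was among the highest 6 members, whereas *Rpl13a*, with 22%, was next to last.

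**Figure D3:**
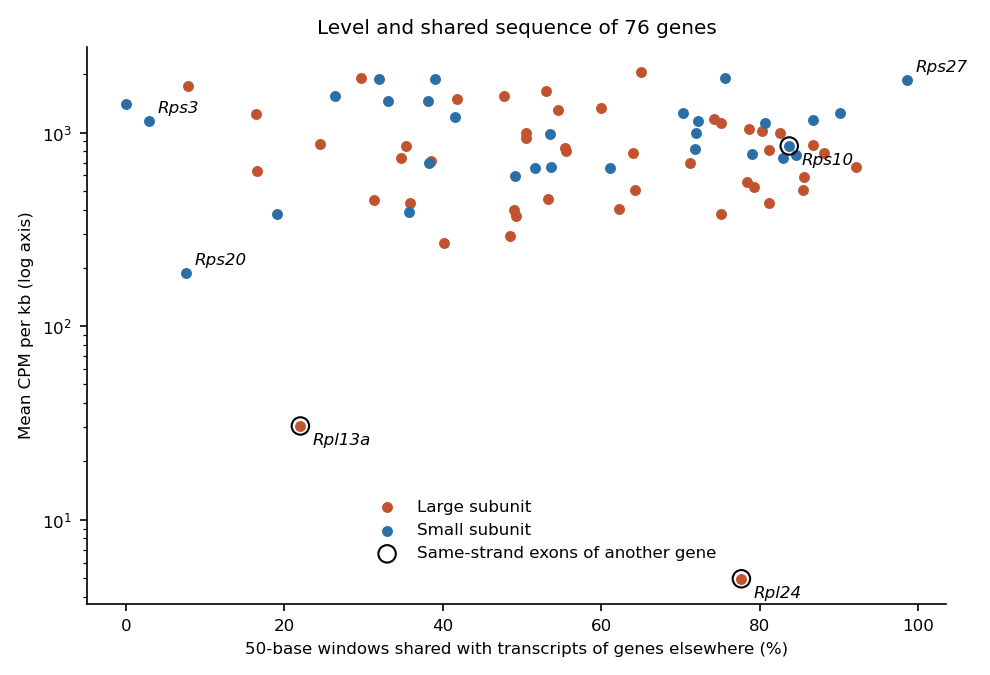
Mean level of the 76 members in CPM per kb (y axis, log scale) against the percent of 50-base stretches of the principal transcript that also occur in transcripts of genes elsewhere (x axis). Open circles mark the 3 members covered by same-strand exons of another gene, of which *Rpl24* and *Rpl13a* lie lowest and *Rps10* lies at 852 CPM per kb. Members with at least 80% shared sequence lie between 433 and 1866 CPM per kb.

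Few counts were assigned to the pseudogenes themselves. The 272 listed symbols with a -ps ending of a member held 2248 counts in replicate 1 and 2270 in replicate 2, or 0.272% and 0.260% of the counts on members, and 114 of them had none. The 843 listed pseudogenes that share a 50-base stretch with a member held 5597 and 4784 counts, or 0.678% and 0.548%. At least 100 counts in both replicates were found for 4 of them: *Gm6472*, *Rps15a-ps8*, *Rpl3-ps1*, and *Gm12901*. *Rps15a-ps8* had 981 and 1030 counts but shares only 2.71% of the stretches of *Rps15a*, and *Gm12901* had 368 and 398 counts and shares 0.893% of those of *Rpl11*. *Rpl3-ps1* had 707 and 739 counts and shares 81.5% of the stretches of *Rpl3*, so its counts and those of *Rpl3* are uncertain.

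Most paralogues of the members were low. *Rpl22l1* encodes a protein closely related to that of *Rpl22*, and had 1359 and 1231 counts, or 147 and 137 CPM per kb. The ratio of *Rpl22* to *Rpl22l1* per kb was 5.61 in replicate 1 and 6.65 in replicate 2, 6.13 ± 0.737 (SD, n = 2). *Rpl36al* was the only paralogue near its member, with 409 and 433 CPM per kb against 466 and 544 for the X-linked *Rpl36a*, a ratio of 1.2 ± 0.0817 (SD, n = 2). *Rpl7* was 7.43 ± 0.0928 and *Rps27* 29.2 ± 0.717 times as high per kb as *Rpl7l1* and *Rps27l* (SD, n = 2).

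Paralogues with expression mainly in testis or muscle were near the limit of detection. *Rpl39l* had 22 and 13 counts, and *Rps4l* had 8 and 6. *Rpl3l*, a muscle paralogue of *Rpl3*, had 1 and 3 counts. *Rpl10l*, a testis paralogue, had no count in either replicate, so that *Rpl10* was at least 3632-fold higher per kb, set against a floor of 3 counts per library (0.179 CPM in replicate 1, 0.185 in replicate 2). *Rps27rt*, a retrogene, had 52 and 15 counts.

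**Figure D4:**
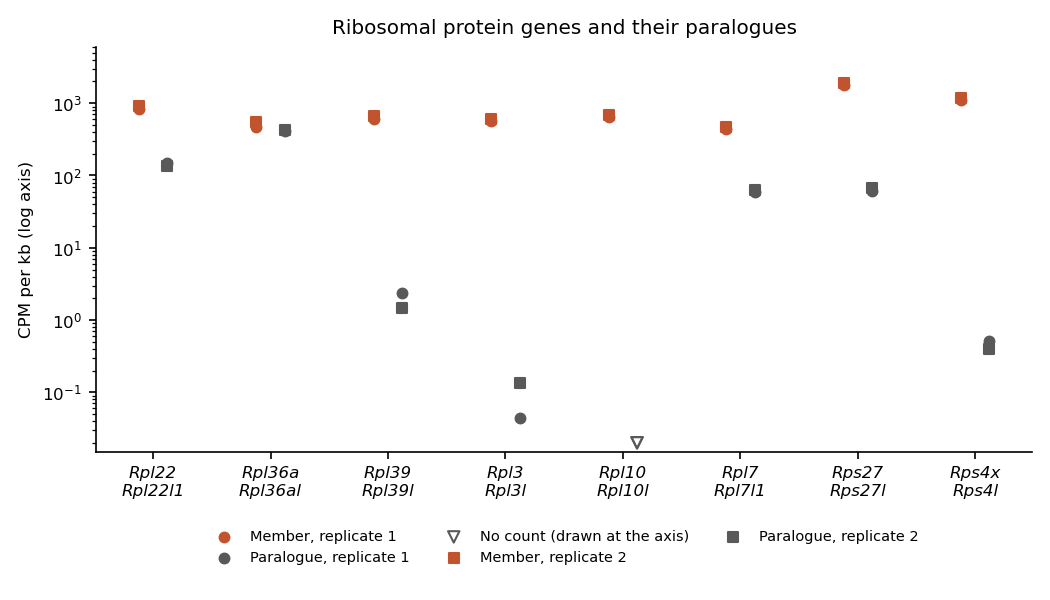
Levels in CPM per kb (y axis, log scale) of 8 members and of a paralogue of each (x axis), with circles for replicate 1 and squares for replicate 2. *Rpl36a* and *Rpl36al* are close to each other, *Rpl22*, *Rpl7*, and *Rps27* are 6.13, 7.43, and 29.2 times as high as their paralogues, and *Rpl10l* has no count and is drawn at the lower edge.

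Cytosolic ribosomal proteins whose symbols lie outside the rule were also in the libraries. *Rps3a1* had 1087 and 1148 CPM, and *Fau*, which encodes a ubiquitin-like fusion with a small-subunit protein, had 639 and 677 CPM. *Rack1*, a scaffold on the head of the small subunit, had 1501 and 1588 CPM. Per kb, these were 1144, 1394, and 1067 CPM, within the range of the members.

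All 17 other mRNAs fixed as having a TOP tract were listed, at 139 to 5893 CPM, with a median of 308 CPM per kb. The highest, *Eef1a1*, which delivers aminoacyl-tRNA to the ribosome, had 5664 and 6122 CPM. Genes that control ribosomal protein mRNAs or sense ribosome production had a median of 14.0 CPM per kb. *Larp1*, which binds TOP tracts, had 291 and 311 CPM, *Myc* had 127 and 136 CPM, and *Trp53* had 200.1 and 206 CPM. *Mycn* had 3 and 5 counts. All 29 listed genes of ribosome biogenesis and RNA polymerase I had at least 10 CPM, with a median of 34.9 CPM per kb and *Ncl*, encoding nucleolin, highest at 676 and 727 CPM. Proteins of the mitochondrial ribosome, a list added after the data were seen, had a median of 18.2 CPM per kb over 77 genes. The cytosolic set thus lay far above both the genes that build ribosomes and the genes of the other ribosome of the cell.

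Introns of 29 members contain 56 annotated small nucleolar RNA genes on the same strand, which guide the modification of ribosomal RNA, with up to 5 in *Rpl4*. Members with such a gene had a median of 778 CPM per kb (quartiles 503 and 1146), and the 47 members without had 861 (quartiles 627 and 1282). The quartiles overlapped over most of their range.

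Replicates of the members differed little. The median coefficient of variation over the 76 members was 5.92%, with 10th and 90th percentiles of 3.18% and 10.3%, and 74 members differed by less than 1.2-fold. In CPM, 74 members were higher in replicate 2 and 2 were lower (*Rpl24* and *Rpl31*). In exact binomial tests (two-sided, Benjamini-Hochberg adjustment over 15949 genes), 69 of 76 members were higher in replicate 2 at an adjusted p under 0.05 and 0 were lower. Of all genes tested, 13.5% were higher in replicate 2 and 2.82% were lower. This test compares the reads of these libraries and not conditions. Its p-values hold for counting error alone, with reads taken as independent, and contain no term for the spread between samples.

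Other genes with many counts were also called often, but they were not matched to the members in counts. Among 1160 other genes with at least 5000 counts over both libraries, a floor that 73 members reached, 42.7% were called higher in replicate 2 and 10.9% lower. Members filled 46 of the first 200 places by CPM, and the test calls small shifts more readily at higher counts. The 42.7% is therefore not the share for genes with the counts of the members. The median log2 ratio of replicate 2 to replicate 1 was 0.12 (1.09-fold) over the members, 0.067 over those other genes and 0.076 (1.05-fold) over all genes tested. No member differed at least 2-fold. Of all genes tested, 1.52% did at an adjusted p under 0.05, with 0.94% higher and 0.577% lower in replicate 2. With edgeR's exact test and a fixed biological coefficient of variation of 0.1, 0 members passed an adjusted p of 0.05, 0 members had an unadjusted p under 0.05, and 0.464% of all genes tested were called (0.263% higher and 0.201% lower). With 1 library on each side and that variation, the test could not call shifts of less than 1.2-fold, which 74 members had. Its result for the members therefore decides nothing.

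The number of calls and the size of the shift depended on the library totals, whereas the median ratio stayed above 0 with each scaling tried. Mitochondrial and ribosomal RNA genes (393 genes) held 16% of the counts in replicate 1 and 12.6% in replicate 2. Without them in the totals, 39 members were higher and 1 was lower in replicate 2, and the median log2 ratio was 0.061. Of all genes tested, 6.57% were then higher and 4.40% lower. With DESeq2 size factors 37 members were higher and 1 lower, beside 6.22% and 4.63% of all genes tested. With edgeR's TMM factors 28 members were higher and 3 lower, beside 5.09% and 5.49%. By the sign of the ratio alone, 58 members were higher and 18 lower with TMM factors. How many members passed as higher in replicate 2 thus changed by more than 2-fold with the scaling.

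**Figure D5:**
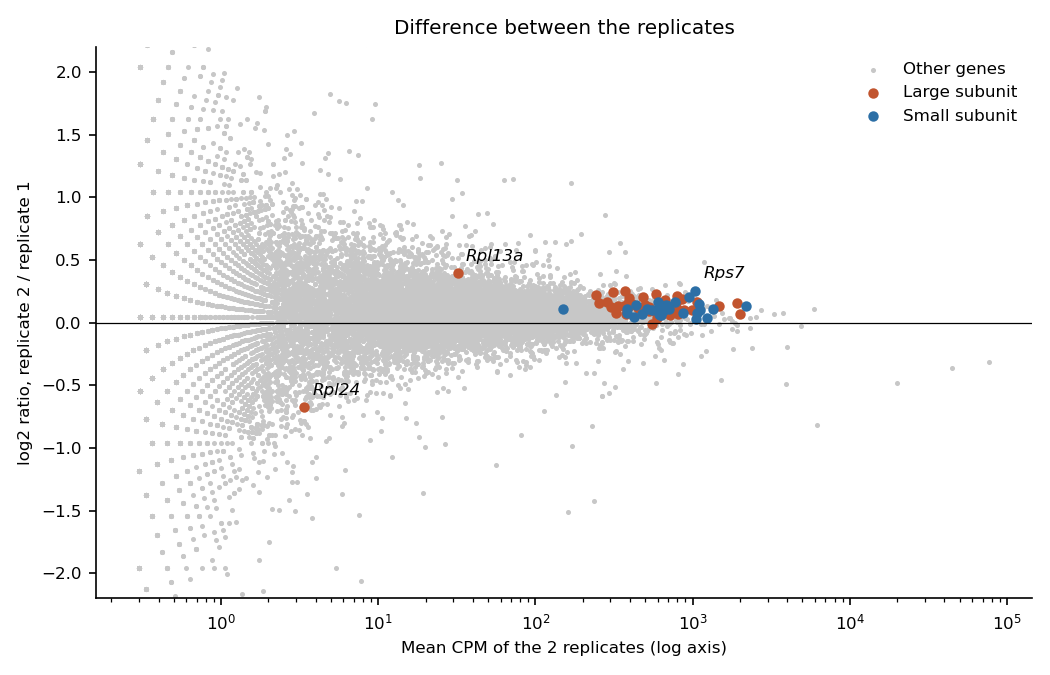
Log2 ratio of replicate 2 to replicate 1 in CPM (y axis) against the mean CPM of the 2 replicates (x axis, log scale) for 15934 genes with counts in both, in grey, and for the large-subunit and small-subunit members in colour. The y axis ends at 2.2 on either side, which leaves out 121 genes. Nearly all members lie in a narrow band above 0, with *Rpl13a* and *Rps7* above it and *Rpl24* below.

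The largest ratio was that of *Rpl13a*, which was 1.31-fold higher in replicate 2 (log2 ratio 0.39, adjusted p = 0.000224 by the exact binomial test). *Rps7*, which encodes a small-subunit protein also known to bind MDM2, had 15800 and 18307 counts, or 944 and 1127 CPM, and was 1.19-fold higher (log2 ratio 0.26, adjusted p = 3.53e-57). *Rpl37*, *Rpl36*, and *Rpl9* followed with log2 ratios of 0.25, 0.24, and 0.23. At the other end, *Rpl24* had a log2 ratio of -0.67, which did not pass the test (adjusted p = 0.0871), with 69 and 42 counts. *Rpl31*, with 9208 and 8875 counts or 550.3 and 546 CPM, had a log2 ratio of -0.011 (adjusted p = 0.827). *Rpl5*, *Rpl14*, *Rps10*, and *Rpsa* also did not pass, with log2 ratios of 0.032 to 0.067.

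*Rps7* shares 70.3% of its 50-base stretches with genes elsewhere, and the pseudogene *Gm6472* holds 60.8% of them. *Gm6472* had 1753 and 913 counts, or 105 and 56.2 CPM, so that it was lower in replicate 2 (log2 ratio -0.90) while *Rps7* was higher. Summed over both genes, there were 17553 and 19220 counts, or 1049 and 1183 CPM, a 1.13-fold difference. The counts of both genes are uncertain, since they share most of their sequence.

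The replicates also differed in genes of the sex chromosomes. *Xist*, the RNA that coats the inactive X chromosome, had 34 and 25266 counts in replicates 1 and 2, and the Y-linked *Ddx3y* had 2450 and 0. The Y-linked *Eif2s3y* had 1833 and 1 counts, *Kdm5d* had 1304 and 59, and *Uty* had 467 and 10. The labels do not give the sex of the mice. An effect of sex cannot be told apart from other differences between the replicates. There are 4 members on the X chromosome. *Rps4x*, which has a Y-linked counterpart in humans, had 1078 and 1159 CPM, *Rpl10* had 509 and 554, *Rpl39* had 368 and 411, and *Rpl36a* had 225 and 263 CPM. Their log2 ratios of 0.10, 0.12, 0.16, and 0.22 had a median of 0.14, beside 0.11 over the 72 autosomal members and 0.082 over 441 tested genes of the X chromosome. The X-linked members thus stayed within the range of the autosomal ones.

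The calls in the other lists stand beside the 13.5% higher and 2.82% lower of all genes tested. Of the 17 other TOP mRNAs, 12 (70.6%) were higher in replicate 2 and 0 were lower, with a median log2 ratio of 0.12. This list includes *Rack1* and is highly expressed, with a median of 399 CPM. Among other genes with at least 5000 counts over both libraries, a floor not matched to the counts of this list, 42.7% were called higher and 10.9% lower. Of the genes that control ribosome production, 3 of 11 tested (27.3%) were higher (*Larp1*, *Rps6kb1*, and *Eif4ebp2*), and of the biogenesis genes 5 of 29 (17.2%) were higher (*Ubtf*, *Nop56*, *Ncl*, *Bysl*, and *Sbds*). None of either list was lower. Of the mitochondrial ribosomal protein genes, 7 of 77 (9.09%) were higher and 0 were lower, and 0 of the paralogues were higher. *Rps27rt* was the only paralogue that was lower in replicate 2 (log2 ratio -1.75, adjusted p = 0.000152 by the exact binomial test). Without *Cd8a* and *Cd8b1*, 1 of 8 markers of mature CD8-lineage thymocytes was higher and 5 were lower in replicate 2.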

How the data were processed

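Libraries were made with a NEBNext kit after poly(A) selection and read as single-end 50-base reads. The authors mapped reads with TopHat2 2.1.1 to mm10 and counted them per gene with HTSeq 0.6.1, and the deposited tables hold raw counts without normalization. The annotation and strand setting of the counting are not given in the sources used here. Lines for unassigned reads were left out of the totals. Reads on genes were 40.6% and 41.2% of uniquely aligned reads, and ambiguous reads were 3.52% and 2.92%. The largest class, 23057488 reads in replicate 1 and 22053370 in replicate 2, was assigned to no gene. Why so many were not assigned, and what this means for the levels, was not tested.

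Positions, lengths, overlaps and shared 50-base stretches were taken from GENCODE M21 (GRCm38), in which 46294 symbols and all 76 members were found. Start sites came from RefSeq. Genes with at least 10 summed counts were compared between replicates by two-sided exact binomial tests on the totals, with Benjamini-Hochberg adjustment (scipy 1.17.1, statsmodels 0.14.6). The test was first checked on data simulated with counting error alone and with changes larger than those of most members. That check does not cover spread between samples or shifts as small as those of most members. Alternatives used edgeR 4.0.16, DESeq2 1.42.0, other totals, minimum counts and lengths. Python 3.11.15 and R 4.3.3 were used. Named members are the 5 highest and 5 lowest per kb, the 5 with the largest ratio in each direction, X-linked members, and fixed role lists. *Rpl7*, *Rpl7a*, *Rpl14*, *Rpl15*, *Rpl30*, *Rps10*, *Rps15a*, *Rps27*, and *Rps29* are named beside these for their sequence, overlap, paralogue or test, after their values were seen. Some genes that these rules name are not reported here. The members and lists were chosen with earlier results of these data known.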

Additional observations from a re-analysis of the deposited data

How the results depend on the processing

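Leaving out each replicate gave member shares of 4.94 to 5.37%, large-subunit medians of 734 to 811 CPM per kb, small-subunit medians of 1024 to 1083, ratios of the 90th to the 10th percentile of 4.14 to 4.17, and 55 to 57 members among the first 100 genes per kb. With 2 replicates such values cannot leave the SD, so they say nothing about stability. Without mitochondrial and ribosomal RNA genes in the totals, the member share was 6.01%, and the CPM of 33 of 35 named members moved by more than 1 SD. TMM (factors 0.973 and 1.03) and DESeq2 scaling (0.993 and 1.01) moved none of them by that much. This says nothing about stability, because these factors lower 1 library as they raise the other. The mean of the 2 libraries could therefore hardly move.

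With lengths from the union of annotated exons, the large-subunit median was 256 CPM per kb, the small-subunit median 387, the percentile ratio 6.34, and 41 members were among the first 100. With coding length they were 1188, 1432, and 3.74. With only stretches found in no other gene as length, they were 2271, 2470, and 8.86, without *Rps27* and *Rps12*, which have fewer than 50 such stretches. Without the 3 members covered by same-strand exons, the small-subunit median was 1118 and the ratio 4.08. The last 3 settings were chosen after seeing the data, and the small-subunit median was above the large-subunit median in each setting given here.

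Members higher and lower in replicate 2 numbered 69 and 0 in the main test, 28 and 3 with TMM, 37 and 1 with DESeq2 factors, and 39 and 1 without the mitochondrial and ribosomal RNA genes. They numbered 67 and 0 with a minimum of 1 count (7.95% of all genes tested were higher), 71 and 0 with 100 counts (20.2%), and 0 and 0 at 2-fold or with edgeR's exact test. The median log2 ratio over the members was 0.040 with TMM, 0.057 with DESeq2 factors, and 0.061 with the reduced totals. In the same order, it was 0.061, 0.078, and 0.083 over X-linked members and 0.036, 0.053, and 0.058 over autosomal members. Shared stretches across the genome were not run, since only transcripts were searched. No paired analysis was possible because there is a single group. Counts limit *Rpl24* most, at 69 and 42.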
